A study of Oryctolagus cuniculus with 39 samples.

Results

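In whole interscapular brown adipose tissue (total iBAT) of the rabbit, 29 of 20183 genes met a rule for a peak at 3 weeks of age. They were chosen by the measured total iBAT values themselves, in FPKM (fragment counts divided by transcript length and by the library's mapped total), as deposited. A gene met the rule when its 3 weeks mean was at least 10 FPKM and at least 2 times the mean of each other age, and when its lowest 3 weeks value lay above its highest value at every other age. The rule used all 12 libraries of this tissue, so the values there are a description and were not tested. The series profiled New Zealand White rabbits at day 1 and at 3, 6 and 12 weeks of age, with no treatment or genetic change given in the labels. There were 3 libraries per age from total iBAT, from its stromal vascular fraction (iBAT SVF) and from that of the subscapular depot (sBAT SVF), 36 libraries in all. The 24 SVF libraries took no part in the choice of the genes, and the same genes were tested there. Whether they came from the same animals as the total iBAT libraries is not given, so they may not be independent of that choice. The labels do not say whether the libraries of a group came from separate animals, so p-values measure only the spread between these samples, which may be technical.

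Brown adipose tissue burns fat to make heat through the mitochondrial protein UCP1, and in rabbits it turns into white-like fat in the weeks after birth. The stromal vascular fraction holds the cells other than mature adipocytes, among them progenitors, vessel cells and macrophages. In total iBAT, UCP1 had 5102, 5163 and 5780 FPKM at day 1 and 870, 671 and 942 at 3 weeks, and no later library passed 22.4. The 3 weeks libraries thus lay between the brown and the late state for this defining gene. The adipokine gene ADIPOQ was present in every total iBAT library, from 444 to 5680 FPKM.

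Libraries that stood apart bear on several of the 29 genes. Total iBAT 3 weeks replicate 3 held skeletal muscle transcripts. The summed FPKM of 25 muscle marker genes was 7985 there, against 38.9 and 29.0 in the other 3 weeks libraries and 20 to 306 at other ages. Total iBAT 3 weeks replicate 2 had a sum of 50.4 for 21 markers of T and natural killer cells, against 2.60 to 8.33 elsewhere. In the sBAT SVF at 3 weeks, ADORA1 and LOC100009266 together held 63.9% to 80.4% of the deposited FPKM, and 12416 to 13888 genes were above 0, against 15451 or more in every other library. SVF values are therefore given after median ratio scaling (scaled FPKM), which divides each library by its median ratio to a common reference. The tables hold no read counts and the depth of the libraries is unknown. In bulk samples, fewer cells of a type and less RNA per cell cannot be told apart.

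The 29 genes ranged from 10.8 to 1241 FPKM in their 3 weeks means, with a median of 21.2, and 9 of them reached 50 FPKM. The ratio of the 3 weeks mean to the highest other mean ran from 2.03 to 7.72, with a median of 2.51, and was at least 3 in 5 genes. The highest ratio, that of PTP4A3, was 3.76 without 3 weeks replicate 3. After median ratio scaling of total iBAT 17 of the 29 met the rule and no other gene did. The 12 lost were ACOT11, CRYM, FFAR2, LOC108178884, LRRC39, LYZ, OBSL1, PRKAG2, RPS27L, RXRG, SEMA7A and TMEM37. Day 1 was the next highest age in 13 genes, 6 weeks in 12 and 12 weeks in 4. Day 1 and 12 weeks values overlapped in 21 genes, whereas all day 1 values lay above all 12 weeks values in 5 (DFFB, GPX3, ACOT11, OBSL1, RXRG) and below them in 3 (SPSB1, G0S2, PPL). The matching shares over all genes were not computed, and the rule used these values. This split is thus a description of single genes and not a trait of the set. Of the 6212 genes with a 3 weeks mean of at least 10 FPKM, 1502 (24.2%) had their highest age mean at 3 weeks. A further 73 genes met the fold and the level but overlapped with another age, and in 63 of these 3 weeks replicate 3 was over 10 times the mean of the other 3 weeks libraries.

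**Figure D1:**
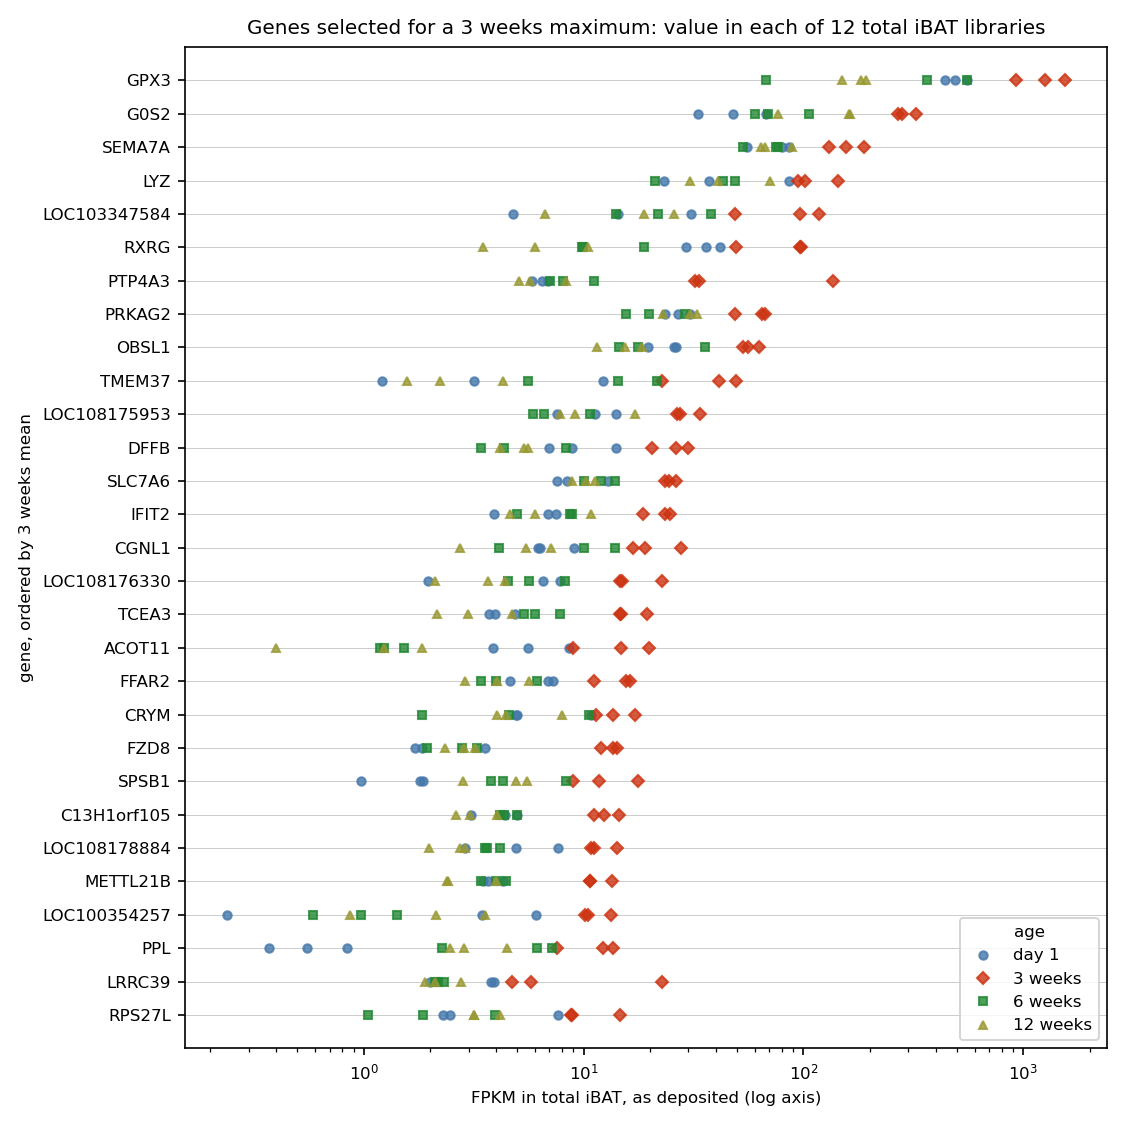
FPKM of the 29 genes (rows, ordered by 3 weeks mean) in each of the 12 total iBAT libraries, on a log axis, with age as colour and marker. By the rule every 3 weeks point lies to the right of all other points of its gene, and the gap is narrow in CRYM, ACOT11, PPL and TMEM37 and wide in FZD8 and PTP4A3.

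Among genes of lipid and redox metabolism, GPX3 had the highest level of the 29 per transcript length. It encodes the secreted glutathione peroxidase of plasma. Its FPKM was 925, 1249 and 1549 at 3 weeks, 555, 487 and 440 at day 1, 555, 364 and 67.7 at 6 weeks and 183, 192 and 150 at 12 weeks. Every 3 weeks library was thus above all others, and the 6 weeks libraries were spread widely. G0S2, an inhibitor of the triglyceride lipase ATGL, was at 324, 268 and 282 FPKM at 3 weeks, at 33.1 to 67.6 at day 1, at 60.3 to 106 at 6 weeks and at 76.3, 163 and 161 at 12 weeks. Its 12 weeks libraries formed the next highest group, with 12 weeks replicate 1 well below the other two. ACOT11, an acyl-CoA thioesterase, had 14.8, 9.0 and 19.9 FPKM at 3 weeks and 3.88 to 8.61 at day 1, and stayed between 0.40 and 1.85 at the later ages. PRKAG2, a regulatory subunit of the energy sensor AMPK, averaged 60.1 ± 9.68 FPKM (SD, n = 3) at 3 weeks and 28.8 at 12 weeks, its next highest age. FFAR2, a receptor for short-chain fatty acids, averaged 14.4 ± 2.80 (SD, n = 3) against 6.26 at day 1. LOC100354257, described as cytochrome P450 2C30-like in the deposited annotation, had 13.4, 10.1 and 10.5 FPKM at 3 weeks, while day 1 gave 0.24, 3.45 and 6.06.

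Genes of receptors and nuclear signalling included FZD8, a Frizzled receptor for WNT ligands. FZD8 was at 13.6, 12.1 and 14.1 FPKM at 3 weeks and between 1.71 and 3.55 in all 9 other libraries. The 3 weeks libraries lay close together and far above the rest. Of the 35 WNT pathway genes in the table, 7 had a 3 weeks mean of at least 10 FPKM, and only FZD8 of these had its maximum at 3 weeks. The summed FPKM of 34 WNT genes without FZD8 was 395 to 452 at 3 weeks, above the 107 to 143 of day 1, and overlapped with the 424 to 636 of 6 and 12 weeks. RXRG, the gamma retinoid X receptor, which pairs with other nuclear receptors, was at 96.5, 49.1 and 97.2 at 3 weeks, at 29.3 to 41.7 at day 1 and at 3.5 to 18.9 later. All listed transcripts of RXRG are non-coding models in the deposited annotation, and 3 weeks replicate 2 was close to the highest day 1 value. CRYM, a cytosolic thyroid hormone binding protein, averaged 14.0 ± 2.90 FPKM (SD, n = 3), and its lowest 3 weeks value of 11.4 was just above 10.9 at day 1. SEMA7A, a membrane-anchored semaphorin, averaged 158 ± 28.6 FPKM (SD, n = 3) at 3 weeks against 68.3 to 73.6 in the means of the other ages.

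IFIT2, induced by interferon, was at 24.9, 18.7 and 23.6 FPKM at 3 weeks and at 3.91 to 10.8 in the other libraries. Of 26 interferon response genes in the table, 5 had a 3 weeks mean of at least 10 FPKM, and IFIT2 alone of these was highest at 3 weeks. The other 25 summed to 111 to 165 FPKM at 3 weeks and to 145 to 296 at the other ages, so the list as a whole did not have its maximum there. LYZ, the lysozyme of phagocytes, had 101, 144 and 94.3 FPKM at 3 weeks. One day 1 library reached 86.3, and the remaining ones at other ages were at 21.1 to 70.5. The other 20 macrophage markers summed to 276, 538 and 260 at 3 weeks, to 89.6 to 123 at day 1, to 191 to 466 at 6 weeks and to 169 to 294 at 12 weeks. The part of these cells in the LYZ values was not tested.

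PTP4A3, a tyrosine phosphatase, had the largest ratio of the 29 with all libraries. Its FPKM was 32.2, 33.6 and 137 at 3 weeks and 5.07 to 11.1 in all other libraries. LRRC39, a protein of the sarcomere's M-band in muscle, was at 5.77, 4.73 and 22.6 at 3 weeks and at 1.90 to 3.90 otherwise. Both were over 4 times as high in replicate 3, the library with muscle transcripts, as in the mean of the other 3 weeks libraries (4.15 for PTP4A3, 4.31 for LRRC39). Without that library the ratio to the highest other mean was 3.76 for PTP4A3, below the 4.57 of FZD8, and 1.62 for LRRC39, and LRRC39 no longer met the rule. The highest value was in 3 weeks replicate 1 in 8 of the 29 genes, in replicate 2 in 4 and in replicate 3 in 17. In 23 of the 29 genes replicate 3 was within 1.5 times of the mean of the other 3 weeks libraries. Leaving it out gave 28 genes, of which 25 were among the 29, and ACOT11, CGNL1 and CRYM were lost beside LRRC39.

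**Figure D2:**
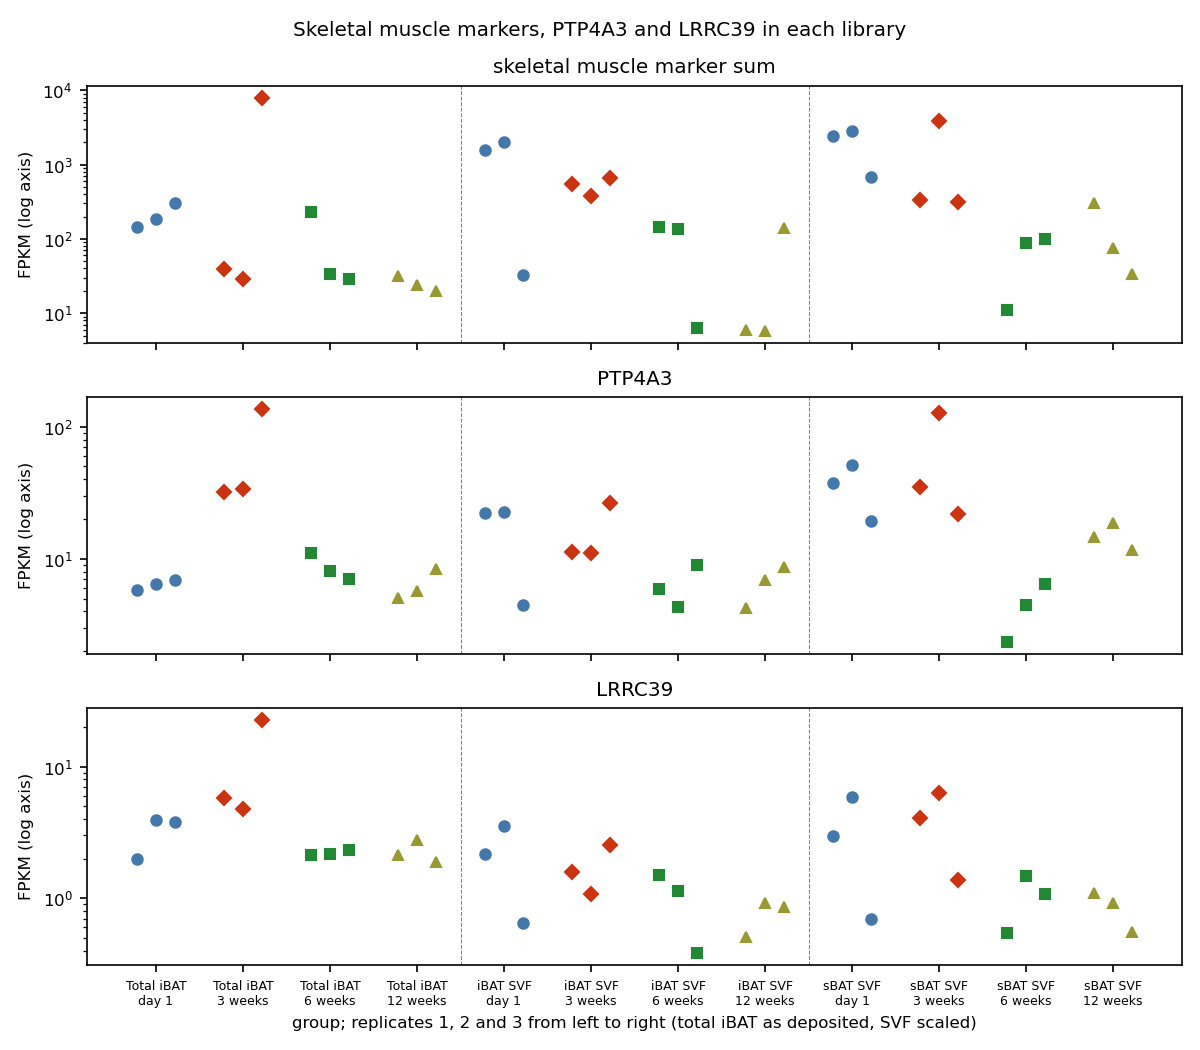
Summed FPKM of 25 skeletal muscle markers (top), and FPKM of PTP4A3 (middle) and LRRC39 (bottom), in each of 36 libraries by tissue and age, on log axes, with total iBAT as deposited and the SVF scaled. Total iBAT 3 weeks replicate 3 and sBAT SVF 3 weeks replicate 2 have the highest muscle sums of their tissues and the highest PTP4A3 and LRRC39 values.

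Genes of transcription, translation and cell death included a pair that match one factor. TCEA3 is a transcription elongation factor, and LOC108176330 is described as TCEA3-like. TCEA3 was at 14.7, 14.8 and 19.5 FPKM at 3 weeks and LOC108176330 at 15.0, 14.6 and 22.8. The 2 may share reads, which was not tested, so they cannot be counted as independent and each value is uncertain. METTL21B, named EEF1AKMT3 in RefSeq and a lysine methyltransferase of the elongation factor eEF1A, was at 10.7, 10.7 and 13.4 at 3 weeks and at 2.39 to 4.43 elsewhere. DFFB, the DNase activated by caspases in apoptosis, averaged 25.5 ± 4.70 FPKM (SD, n = 3) against 9.98 at day 1. RPS27L, a ribosomal protein relative induced by p53, was at 14.6, 8.84 and 8.79 at 3 weeks, with 7.69 in day 1 replicate 3. It has a close paralog, RPS27, and its values are uncertain where reads could be split between them. SPSB1, a substrate adaptor of ubiquitin ligases, averaged 12.8 ± 4.41 FPKM (SD, n = 3) at 3 weeks and was lowest at day 1, at 0.97 to 1.86.

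Transport and cell contact genes made up most of the rest. LOC103347584, described as similar to the zinc importer ZIP10, was at 48.9, 117 and 96.9 FPKM at 3 weeks and at 4.80 to 38.1 elsewhere. SLC7A6, an amino acid exchanger, averaged 24.7 ± 1.44 (SD, n = 3) against 12.0 at 6 weeks. TMEM37, a relative of calcium channel gamma subunits, was at 49.3, 22.8 and 41.3 at 3 weeks, and 6 weeks replicate 1 came close with 21.6. PPL, a desmosomal plakin, was at 13.6, 12.2 and 7.57 at 3 weeks, at 0.37 to 0.84 at day 1 and at 2.27 to 7.16 later, so that it was lowest in the newborn tissue. CGNL1, of tight junctions, averaged 21.2 ± 5.74 (SD, n = 3) and OBSL1, a cytoskeletal adaptor, 57.2 ± 4.83 (SD, n = 3). The remaining C13H1orf105, LOC108175953 and LOC108178884 have no function assigned here, and the last 2 have only non-coding models. Their 3 weeks means were 12.7 ± 1.69, 29.3 ± 4.04 and 12.1 ± 1.83 FPKM (SD, n = 3).

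The thresholds cut through a continuum. Just inside the fold were CRYM (ratio 2.03), SLC7A6 (2.07) and PRKAG2 (2.09), and just outside were PEG3 (1.97), LOC108176105 (1.93) and SLC24A3 (1.93). Just inside the minimum mean were RPS27L (10.8 FPKM), LRRC39 (11) and PPL (11.1), and just outside were ESRRG (9.98), TMEM139 (9.57) and CAMK2A (9.50). Of 35 gene lists on pathways and cell types, 4 held one of the 29 genes. These were WNT signalling (FZD8), the interferon response (IFIT2), triglyceride handling and adipocyte genes (G0S2) and macrophages (LYZ). All 19 skeletal muscle genes with a 3 weeks mean of at least 10 FPKM had their highest mean at 3 weeks, and none met the rule on overlap. In RefSeq gene order, 23 of the 29 could be placed, and the nearest pair, CGNL1 and RPS27L, lay 49 genes apart.

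The same genes were then examined in the stromal fractions, where all 29 were listed. After a filter of at least 1 FPKM in at least 3 SVF libraries, 27 could be tested. LOC100354257 and FFAR2 did not pass, with at most 0.235 and 0.898 scaled FPKM in any SVF library. The 3 weeks group was compared with the mean of the other 3 ages by limma on log2(scaled FPKM + 1), with Benjamini-Hochberg adjustment over 13274 genes and calls at an adjusted p under 0.05. On this scale the change of low genes is understated.

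In the iBAT SVF, 5 of the 27 were higher at 3 weeks (G0S2, GPX3, LYZ, LOC103347584 and LOC108176330) and none lower. Over all genes 0.927% were called higher and 1.48% lower. At an unadjusted p under 0.05 there were 13 of the 27, of which FZD8 was the only one with a negative difference, and 17.6% of all genes tested. The median log2 difference was 0.41 over the 27 and -0.01 over all genes tested, and 19 of the 27 differences were positive. The number of calls was 0 without 3 weeks replicate 1, 2 without replicate 2 and 0 without replicate 3. The log2 differences stayed positive in these fits, at 1.37 to 2.09 for G0S2, 1.14 to 1.78 for GPX3, 1.29 to 1.49 for LYZ, 1.51 to 1.78 for LOC103347584 and 1.07 to 1.24 for LOC108176330. With the FPKM as deposited it was 2. Over the 34 alternatives run, the call of G0S2 was kept in 32, those of GPX3 and LYZ in 31 each, that of LOC103347584 in 21 and that of LOC108176330 in 12.

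In the sBAT SVF, 11 of the 27 were higher at 3 weeks and 1, RPS27L, was lower. Over all genes 7.79% were called higher and 11.1% lower, a much larger background than in the iBAT SVF. The median log2 difference was 0.46 over the 27 and -0.06 over all genes tested, and 23 of the 27 were positive. This split depends on the scaling. With the FPKM as deposited, where ADORA1 and LOC100009266 take most of the 3 weeks total, the median over all genes was -1.13, and 1 of the 27 was higher and 12 were lower. The 1 higher was LOC103347584, so the other higher calls rest on the scaling. Directions in the sBAT SVF are therefore relative to the bulk of the other genes, also for the gene lists below.

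**Figure D3:**
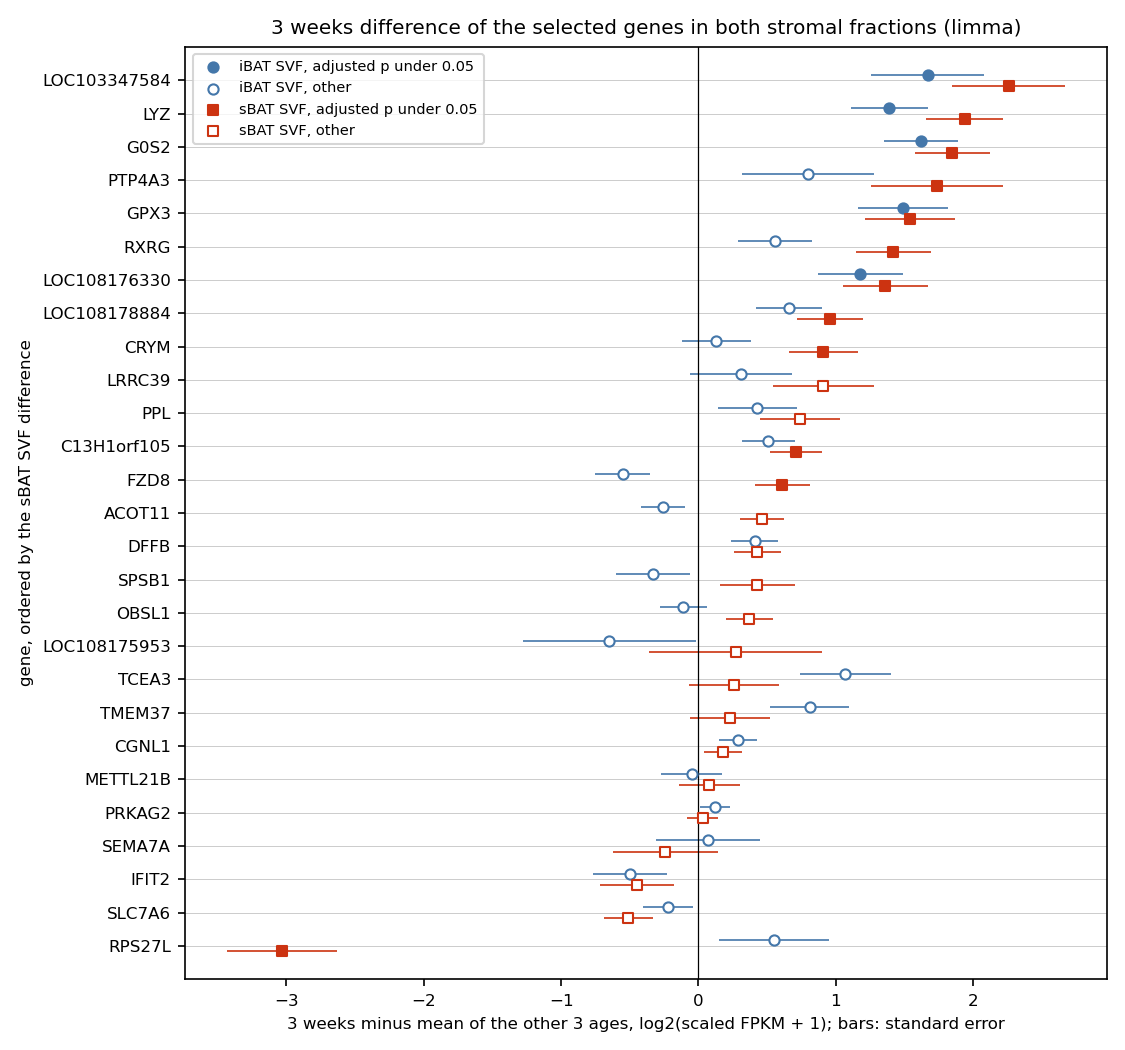
Difference between 3 weeks and the mean of the other ages on the log2(scaled FPKM + 1) scale, with its standard error, for the 27 tested genes in the iBAT SVF (circles) and the sBAT SVF (squares), filled at a limma adjusted p under 0.05. G0S2, GPX3, LYZ, LOC103347584 and LOC108176330 are filled to the right in both, and RPS27L is filled far to the left in the sBAT SVF.

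On scaled values, G0S2 was higher at 3 weeks in both fractions. In the iBAT SVF it was at 13.6, 4.31 and 12.9 scaled FPKM at 3 weeks, at 0.774 to 1.5 at day 1, at 0.824 to 2.63 at 6 weeks and at 3.83 to 7.11 at 12 weeks. Replicate 2 fell within the 12 weeks range. Its sBAT SVF values at 3 weeks of 25.7, 15.8 and 22.3 lay above all others, of which the highest was 14.6 at 12 weeks. This depends on the scaling. As deposited, they were 8.01, 8.35 and 11.4 FPKM, below the 12.0 to 21.2 of 12 weeks, and the sBAT SVF call was lost. On scaled values, the log2 difference was 1.62 ± 0.27 (SE, limma adjusted p = 0.00476) in the iBAT SVF and 1.85 ± 0.27 (SE, limma adjusted p = 0.00032) in the sBAT SVF. The other 26 genes of triglyceride handling and adipocytes summed to 5883 to 9038 at 3 weeks in the iBAT SVF and to 2273 to 7497 at other ages. Those sums were 2188 to 5139 at 3 weeks and 2715 to 7674 at other ages in the sBAT SVF, so G0S2 was high there while the sum was not. FABP4 alone made up much of these sums. At 3 weeks it gave 3561, 1402 and 3296 of 5139, 2188 and 4445 in the sBAT SVF. In the iBAT SVF it gave 4592, 3938 and 6330 of 6677, 5883 and 9038. Of the 25 list genes tested, G0S2 included, 4 were higher and none lower in the iBAT SVF, and 4 were higher and 3 lower in the sBAT SVF (0 and 22 as deposited). The part of residual adipocytes in the G0S2 values was not tested.

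GPX3 was at 170, 69.7 and 97.2 scaled FPKM at 3 weeks in the iBAT SVF. The 12 weeks values of 56.9, 106 and 59.7 overlapped with these, and day 1 and 6 weeks ran from 13.4 to 48.8. Its 3 weeks values in the sBAT SVF were 197, 167 and 218, and no other library of the depot passed 146. The log2 difference was 1.49 ± 0.33 (SE, limma adjusted p = 0.0254) and 1.54 ± 0.33 (SE, limma adjusted p = 0.00398). As deposited, the sBAT SVF values at 3 weeks were 61.3, 88.2 and 112 FPKM, below the 159 to 193 of 12 weeks. The GPX3 calls of both fractions were lost in that setting.

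LYZ was the most abundant of the 29 per transcript length in both stromal fractions. It was at 616, 533 and 468 scaled FPKM at 3 weeks in the iBAT SVF, at 78.9 to 277 at day 1 and 6 weeks, and at 333, 330 and 709 at 12 weeks. One 12 weeks library was thus above all 3 weeks libraries. The sBAT SVF values at 3 weeks of 763, 1236 and 1181 lay above the 112 to 516 of the other ages. As deposited, they were 238, 652 and 605 FPKM, against up to 564 at 12 weeks, and the sBAT SVF call was lost. On scaled values, the log2 difference was 1.39 ± 0.28 (SE, limma adjusted p = 0.0131) and 1.94 ± 0.28 (SE, limma adjusted p = 0.000238). The other 20 macrophage markers summed to 638 to 897 at 3 weeks and 477 to 1079 at other ages in the iBAT SVF. The sBAT SVF sums were 1266 to 1303 and 666 to 1221, so there the sum was also highest at 3 weeks. With LYZ included, 2 of 20 tested markers were higher in the iBAT SVF and 8 of 20 in the sBAT SVF, and none was lower, but as deposited 0 were higher and 13 lower in the sBAT SVF. The part of macrophage number in the LYZ values was not tested.

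LOC103347584 was at 39.5, 29.6 and 26.9 scaled FPKM at 3 weeks in the iBAT SVF and at 41.7, 31.9 and 48.5 in the sBAT SVF. At 6 and 12 weeks it was at 2.28 to 13.3 in both. Day 1 was uneven, with 10.5, 10.8 and 40.4 in the iBAT SVF and 6.82, 13.8 and 48.5 in the sBAT SVF, so replicate 3 of day 1 was as high as the 3 weeks libraries. The log2 difference was 1.67 ± 0.41 (SE, limma adjusted p = 0.0401) and 2.26 ± 0.41 (SE, limma adjusted p = 0.00132). LOC108176330 differed by 1.18 ± 0.31 (SE, limma adjusted p = 0.0483) and 1.36 ± 0.31 (SE, limma adjusted p = 0.00563), with 5.31, 6.95 and 5.38 scaled FPKM at 3 weeks in the iBAT SVF. Its relative TCEA3 was at 4.61, 6.01 and 4.46 in those libraries, above all others of the depot, and its log2 difference was 1.07 ± 0.33 (SE, limma adjusted p = 0.0971). TCEA3 in the sBAT SVF was listed at 0 in 3 weeks replicate 1 and at 3.60 and 2.69 in the others.

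**Figure D4:**
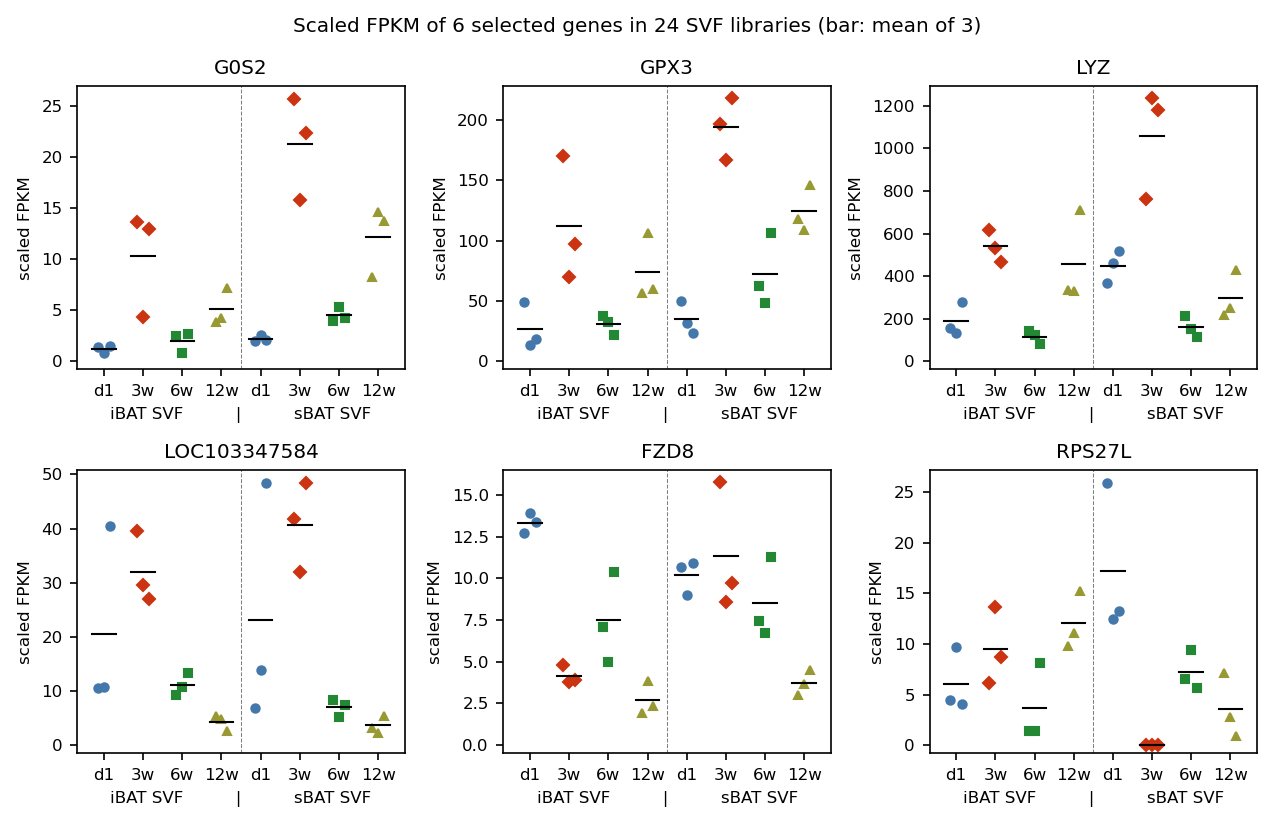
Scaled FPKM of 6 genes in the 24 SVF libraries, by depot and age (d1, day 1, and w, weeks), with points for libraries and bars for means of 3. The 3 weeks means of G0S2, GPX3, LYZ and LOC103347584 are the highest of their depot, FZD8 is highest at day 1 in the iBAT SVF, and RPS27L is listed at 0 in all 3 weeks libraries of the sBAT SVF.

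Other genes higher at 3 weeks in the sBAT SVF were PTP4A3, RXRG, LOC108178884, CRYM, C13H1orf105 and FZD8. These calls were made on scaled values, and none held with the FPKM as deposited. RXRG was at 15.6, 7.58 and 4.63 scaled FPKM, above the 1.42 to 4.23 of the other ages, with a log2 difference of 1.42 ± 0.27 (SE, limma adjusted p = 0.00167). LOC108178884, CRYM and C13H1orf105 were at 0.701 to 6.54 scaled FPKM at 3 weeks, and their log2 differences were 0.96, 0.91 and 0.71. These are low levels in the libraries with the fewest genes above 0. All 3 genes overlapped with later ages. In the same order, their lowest 3 weeks values were 1.96, 0.701 and 1.72, below 2.54 at 12 weeks, 1.53 at 6 weeks and 2.11 at 6 weeks. The call of LOC108178884 was lost without 3 weeks replicate 3, and those of CRYM and C13H1orf105 without 3 weeks replicate 1. PTP4A3 was at 35.2, 126 and 21.8 at 3 weeks, at 19.5 to 51.2 at day 1 and at 2.34 to 18.7 later. Its log2 difference of 1.74 ± 0.48 (SE, limma adjusted p = 0.0161) was 1.03, and no longer called, without 3 weeks replicate 2. That library had a muscle marker sum of 3822 scaled FPKM, against 338 and 315 in the other 3 weeks libraries of the depot, and the highest LRRC39 value of the SVF, 6.33. At day 1 of the iBAT SVF, the muscle sums of 1578, 2024 and 32.7 stood beside PTP4A3 values of 22.4, 22.8 and 4.45. Other libraries did not follow this order. The highest PTP4A3 value of the iBAT SVF, 26.6 in 3 weeks replicate 3, stood beside a muscle sum of 666. In total iBAT, 3 weeks replicates 1 and 2 had PTP4A3 at 32.2 and 33.6 FPKM with muscle sums of 38.9 and 29.0. Day 1 of total iBAT had PTP4A3 at 5.84 to 6.9 FPKM with muscle sums of 146 to 306. The part of muscle RNA in the PTP4A3 values was not tested.

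All 3 values at 3 weeks lay above the other 9 of the depot in 2 of the 27 genes in the iBAT SVF (LOC108176330 and TCEA3), where the share over all genes was 1.24%. They lay below in 0, against 1.92%. In the sBAT SVF they lay above in 4 (GPX3, LYZ, RXRG and G0S2), against 1.96%, and below in 1 (RPS27L), against 2.86%. These counts used scaled values. As deposited, GPX3, LYZ, RXRG and G0S2 each had a 12 weeks value in the sBAT SVF above a 3 weeks value. LOC108176330 and TCEA3 may share reads, so the 2 genes of the iBAT SVF cannot be counted as independent.

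The 3 weeks difference itself was compared between the depots, and 2 of the 27 genes were called. With the sign kept, RPS27L had the larger difference in the iBAT SVF, as 0.791% of all genes did. FZD8 had it in the sBAT SVF, as 0.573% did. In size, the change of RPS27L was larger in the sBAT SVF, where it was a fall. RPS27L was at 6.10, 13.7 and 8.72 scaled FPKM at 3 weeks in the iBAT SVF, inside the 1.39 to 15.2 of its other ages. The sBAT SVF had it listed at 0 in all 3 weeks libraries and at 0.924 to 25.9 in the others. The log2 difference of RPS27L was 0.55 ± 0.40 (SE, limma adjusted p = 0.509) in the iBAT SVF. In the sBAT SVF it was -3.03 ± 0.40 (SE, limma adjusted p = 0.00012), a value that depends on the pseudocount. FZD8 was at 4.78, 3.76 and 3.91 at 3 weeks in the iBAT SVF, below the 12.7 to 13.9 of day 1, and its log2 difference was -0.55 ± 0.20 (SE, limma adjusted p = 0.146). In the sBAT SVF it was at 15.8, 8.60 and 9.70, beside 9.01 to 10.9 at day 1, with a log2 difference of 0.61 ± 0.20 (SE, limma adjusted p = 0.0378), called in 23 of 34 alternatives. With the FPKM as deposited this was -0.67, so the direction of FZD8 in the sBAT SVF turned with the scaling. Of 28 WNT genes tested, FZD8 included, 1 was higher and none lower in the iBAT SVF, and 4 were higher and 1 lower in the sBAT SVF (0 and 20 as deposited).

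Most of the 27 tested genes were not called in either stromal fraction. The 5 higher in the iBAT SVF were all among the 11 higher in the sBAT SVF, where RPS27L alone was lower. IFIT2 had log2 differences of -0.50 ± 0.27 (SE, limma adjusted p = 0.354) in the iBAT SVF and -0.45 ± 0.27 (SE, limma adjusted p = 0.253) in the sBAT SVF. Its highest scaled FPKM were at 6 weeks, up to 8.70 and 18.7, against at most 3.25 and 2.50 at 3 weeks. Of 25 interferon response genes tested, IFIT2 included, 2 were lower in the iBAT SVF and 14 in the sBAT SVF, and none was higher. As deposited, 1 and 25 were lower. SEMA7A (0.07 ± 0.38 and -0.24 ± 0.38), PRKAG2 (0.12 ± 0.11 and 0.03 ± 0.11) and METTL21B (-0.05 ± 0.22 and 0.08 ± 0.22) had log2 differences within 1 SE of 0 or near it, in the iBAT and sBAT SVF in that order. PPL stayed low in the newborn stroma too, at 2.21 to 3.04 and 1.66 to 1.89 scaled FPKM at day 1, while its 3 weeks values of 12.6 to 14.6 and 9.10 to 14.7 overlapped with those at 6 and 12 weeks.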

How the data were processed

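Bulk RNA-seq of 36 libraries was read from the authors' deposited tables of FPKM, the unit per the file headers. The submitters' processing notes name HISAT2 2.0.4, Bowtie2 2.2.5, DESeq2 without a version and the build OryCun2.0, with no role or order. The quantification tool and annotation are not given in the sources used here, and the 3 single-cell samples were not analysed here. Symbols came from the SVF table and, for placeholders, from a RefSeq gene table of another assembly (18079 of 21147 identifiers matched). The tables were normalized separately, so levels are not compared between them.

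Depth is unknown: 3 versions of an estimate of relative depth from low FPKM values failed on simulated data and none was used. Total iBAT FPKM were used as deposited. The 24 SVF libraries were scaled by median ratios (11056 genes above 0 in all), and log2(scaled FPKM + 1) was fitted with limma 3.58.1 in R 4.3.3, with a variance trend, 1 mean per depot and age, and no block. The fit was tested on simulated data. Tests are two-sided.

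The genes and the gene lists were chosen with earlier results of these data known. Genes were named when they had one of the 12 largest ratios or 12 highest 3 weeks means, were on a list, lay next to a threshold (3 on each side) or were among the 5 largest called changes in each direction. TCEA3, ACOT11, SPSB1, FFAR2, CGNL1 and LOC108178884 are given values beyond that rule, to account for every gene. Alternatives covered the scaling, pseudocount, filter, moderation, block, samples fitted, thresholds and each library left out.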

Additional observations from a re-analysis of the deposited data

Results flagged for a closer look

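The 3 weeks difference of RPS27L differed between the stromal fractions of the depots, by 3.58 ± 0.57 on the log2 scale (SE, limma adjusted p = 0.00553, iBAT minus sBAT SVF). That of FZD8 differed the other way, by -1.16 ± 0.28 (SE, limma adjusted p = 0.0462). RPS27L stayed called under all 33 alternatives run, with values from 3.30 to 6.79. FZD8 stayed called under 11 of 33, and its adjusted p reached 0.832.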

How the results depend on the processing

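The number of genes meeting the rule in total iBAT was 17 with median ratio scaling (all among the 29, without LYZ, RXRG, SEMA7A, RPS27L and 8 others), 72 at a fold of 1.5, 5 at a fold of 3, 45 at a minimum mean of 5 FPKM, 15 at 20 FPKM and 102 without the condition on overlap. Leaving out 1 library gave 26 to 39. With the SVF values as deposited, 2 genes were higher in the iBAT SVF, and 1 (LOC103347584) was higher and 12 lower in the sBAT SVF. In that setting 14 and 0 had the larger difference, sign kept here and below, in the iBAT and the sBAT SVF. FZD8 (-0.67) and C13H1orf105 (-0.14) then reversed in the sBAT SVF, as did the depot difference of FZD8 (0.07). Without ADORA1 and LOC100009266, 3 genes were higher in the iBAT SVF and 2 lower in the sBAT SVF. In the sBAT SVF, 7 were higher with a filter at 5 FPKM and 7 with a log2 minimum of 1, and 2 were lower with a pseudocount of 0.1. Without a filter 2 had the larger difference in the iBAT SVF. No gene had the larger difference in the sBAT SVF (0) with upper quartile scaling, without the 2 dominant genes, without a filter or with the filter at 5 FPKM. Leaving out 1 library gave 0 to 6 higher and 0 lower genes in the iBAT SVF, 10 to 14 higher and 1 to 2 lower in the sBAT SVF, 1 with the larger difference in the iBAT SVF and 0 to 3 in the sBAT SVF. The cause of these shifts was not tested. The labels do not say whether same-numbered libraries of the depots are paired. Their deviations correlated at 0.25 to 0.51 at 12 weeks and 0.06 to 0.59 at day 1, but at -0.23 to 0.17 at 3 weeks and -0.29 to -0.13 at 6 weeks, so they were not treated as pairs. The fit with a replicate block gave the same counts, 5 and 0, 11 and 1, and 1 and 1. Depth is unknown, so the counting error of values near 0, such as those of RPS27L in the sBAT SVF at 3 weeks, could not be estimated.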
